A study of Homo sapiens with 9 samples.

Results

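The RNAs described here are 138 genes that were lower in MP41 cells given a synthetic miR-16 than in cells given the control mimic miR-CTR from 12 h after transfection onward. MP41 is a human uveal melanoma (UM) cell line, grown in culture. The genes were chosen by their deposited values: a value of at least 7 at 0 h, a logFC of -0.4 or less at 12 h, and a logFC of -0.5 or less at both 24 and 48 h, where logFC is the miR-16 value minus the miR-CTR value of the same hour. Of the 14839 genes in the table, 11137 had a 0 h value of at least 7, and the 138 members were 1.24% of these. The logFC values at 12, 24 and 48 h selected the members, so they are given as a description only. This rule does not use the 6 h libraries, the sequences of the RNAs or the functions of the genes. It was set with earlier results of these data known.

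PolyA RNA was sequenced from untransfected cells collected at 0 h, which the labels place in the miR-CTR series, and from cells transfected with either mimic at 66 nM and collected 6, 12, 24 and 48 h later. All post-transfection groups thus share the transfection itself, and the 0 h library does not. There was 1 library per condition, 9 in all (4 with miR-16, 5 in the miR-CTR series). No difference has a replicate check and no p-value was computed. The deposited values are log2 of normalised reads plus 1, so a logFC of -1 is a 2-fold lower level. The libraries held between 20300000 and 27400000 counted reads, and the median gene stood between 9.13 and 9.17 in all 9. In these cells, 18 of 19 melanocyte lineage markers were in the table, at 8.66 to 17.88 at 0 h, and none of the 6 epithelial or 5 endothelial markers was listed. Of 8 immune and 6 fibroblast markers, 2 and 3 were listed, the highest being COL1A1 at 8.31 at 0 h.

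miR-16 is a microRNA, a short RNA that is loaded into an Argonaute protein and guides it to messenger RNAs. Pairing rests mainly on the seed, bases 2 to 8 of the microRNA, and a match to the seed in the 3′UTR of an mRNA commonly leads to deadenylation and decay of that mRNA. The miR-15/16 family is best known for limiting cyclins and other drivers of the cell cycle, and miR-16 has been described as a tumour suppressor in leukaemia and other cancers.

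Among the mature human microRNAs of RefSeq (GRCh38.p14), 7 share the seed of miR-16. They are shown because any gene with a match to one seed holds the same letters for the others. Capitals mark bases 2 to 8, read 5′ to 3′. miR-16-5p is encoded at chr13:50049027-50049048 on the reverse strand (MIR16-1) and at chr3:160404754-160404775 on the forward strand (MIR16-2), with the same mature sequence.
hsa-miR-16-5p: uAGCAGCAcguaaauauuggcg
hsa-miR-15a-5p: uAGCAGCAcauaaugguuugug
hsa-miR-15b-5p: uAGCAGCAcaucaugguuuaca
hsa-miR-195-5p: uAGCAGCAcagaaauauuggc
hsa-miR-424-5p: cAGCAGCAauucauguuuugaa
hsa-miR-497-5p: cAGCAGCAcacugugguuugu
hsa-miR-6838-5p: aAGCAGCAguggcaagacuccu

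Sites that pair with this seed were looked for as the letters TGCTGCT (7mer-m8, opposite bases 2 to 8), TGCTGCTA (8mer, the same followed by A), GCTGCTA (7mer-A1) and GCTGCT (6mer) in the longest annotated 3′UTR of each gene, on the transcript strand. The 10 windows below show sites of members that were lowest at 24 and 48 h or lowest at 6 h. Among these members 8mer sites were taken first, so the windows do not show how often each kind of match occurs. Each ends 2 bases after the match, which is in capitals. Positions are of the whole window in GRCh38, and all lie in the 3′UTR of the GENCODE transcript with the longest 3′UTR of that gene.
ARL2 (chr11:65021956-65021985, forward strand, 8mer): cctcctccaccccagcctgcTGCTGCTAct
CDC25A (chr3:48158262-48158291, reverse strand, 8mer): aggcgctgtggtactggggcTGCTGCTAtt
KLHDC8B (chr3:49176452-49176481, forward strand, 8mer): tttggatgtggaagtaaaagTGCTGCTAaa
DNAJB4 (chr1:78016693-78016722, forward strand, 8mer): atttaaatcaccttctgaaaTGCTGCTAta
SLC2A3 (chr12:7921307-7921336, reverse strand, 8mer): gaacccaggacgcttctgaaTGCTGCTAct
CDCA4 (chr14:105010727-105010756, reverse strand, 8mer): ttttttctataaacatccttTGCTGCTAca
SPRYD3 (chr12:53065357-53065385, reverse strand, 7mer-m8): tcctggttgtgtgaaccagtTGCTGCTgt
SMPD1 (chr11:6394647-6394675, forward strand, 7mer-m8): aaagggtgaaaaagcccaaaTGCTGCTgt
DYNC1I1 (chr7:96098050-96098078, forward strand, 7mer-m8): tggatttactagaagaacatTGCTGCTcc
AMOT (chrX:112775602-112775630, reverse strand, 7mer-m8): aatgaaggatttccttttaaTGCTGCTtt
These sites sat close to the stop codon in SMPD1, where the match covered bases 60 to 66 of a 3′UTR of 388 bases, and far from it in AMOT, where it covered bases 2957 to 2963 of 4064.

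The median logFC of the members was lower at each later time. In the order 6, 12, 24 and 48 h it was -0.28, -0.495, -0.75 and -0.825. The median over all 11137 genes stayed between -0.02 and 0.01. The limits act at 12, 24 and 48 h and not at 6 h, so part of these steps is set by the choice. The limits at 12, 24 and 48 h were each passed by 2.24%, 3.78% and 7.94% of the 11137 genes and, by construction, by all 138 members. The logFC was lower at 24 h than at 12 h in 131 members, and lower at 48 h than at 24 h in 84. The lowest point was at 48 h in 83 members, at 24 h in 48 and at 12 h in 2, and in 78 the logFC never came back up between 6 and 48 h. Over the mean of 24 and 48 h, the members stood at 31 to 70.7% of their miR-CTR level, and 26 of them had a logFC of -1 or less. In bulk RNA, fewer cells with a transcript and less of it per cell cannot be told apart.

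**Figure D1:**
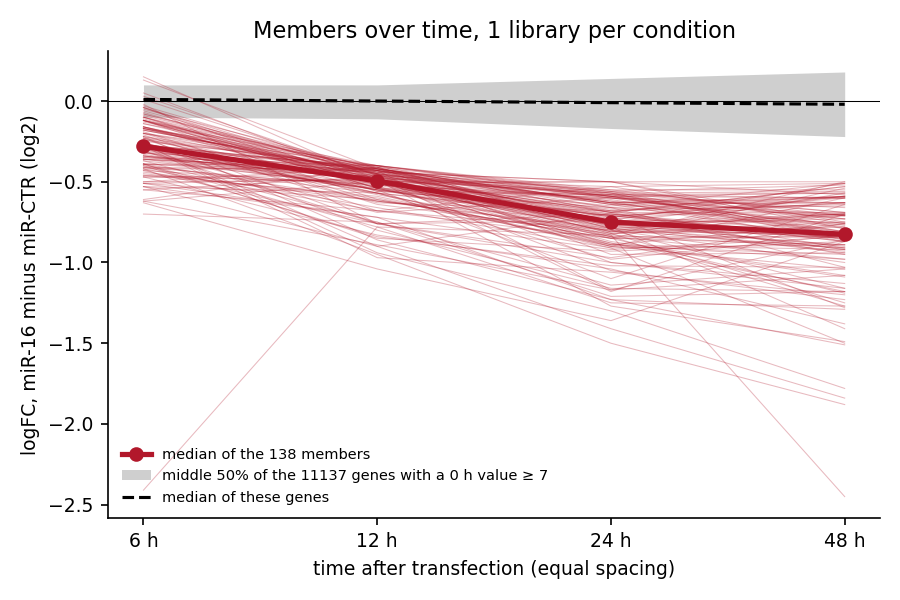
The logFC of each of the 138 members (thin red lines, log2) at 6, 12, 24 and 48 h, with their median (thick red line), beside the median (dashed) and the middle 50% (grey band) of all 11137 genes with a 0 h value of at least 7. The median of the members goes from -0.28 to -0.825 and that of all genes stays between -0.02 and 0.01. The single line that swings between -2.45 and -0.78 is the pseudogene RPS18P12.

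The 6 h pair of libraries, which the rule did not use, already separated the members from the rest. At 6 h the logFC was below 0 in 133 of 138 members (96.4%), against 47.1% of all 11137 genes. It was -0.4 or less in 33 members (23.9%), against 1.57% of all genes. For 114 members (82.6%) it lay below 0 by more than 2 counting standard errors, against 16.4% of all genes. The counting standard error, derived from the reads of both libraries, covers counting error only, and its median over the members was 0.0662 at 6 h. Genes that passed the limits at 24 and 48 h but not at 12 h, 152 in number, held an intermediate place, with a median 6 h logFC of -0.17 and 138 of them (90.8%) below 0. "From 12 h" therefore names the limits, not the onset.

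**Figure D2:**
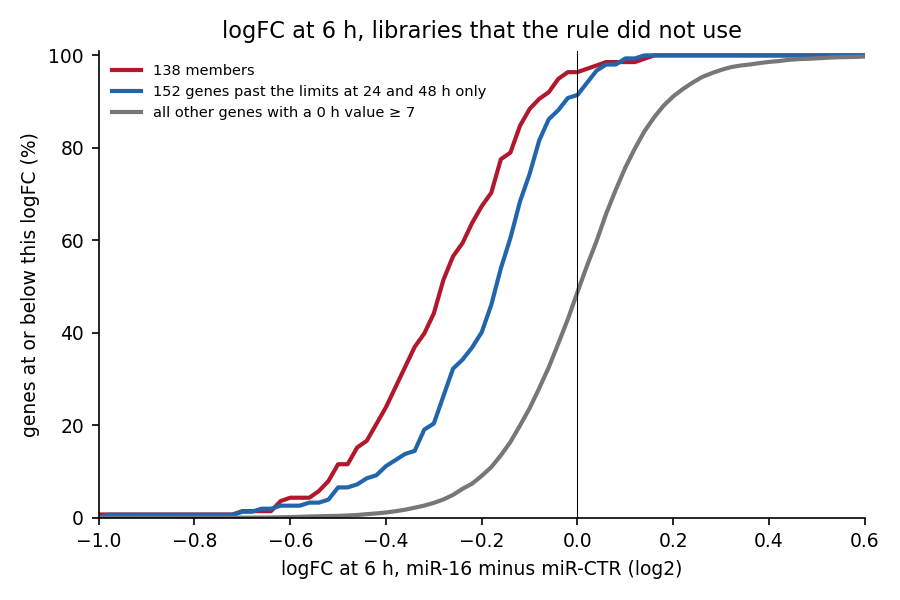
Cumulative share of genes (vertical axis, %) at or below each 6 h logFC (horizontal axis, log2) for the 138 members (red), the 152 genes past the limits at 24 and 48 h only (blue) and all other genes with a 0 h value of at least 7 (grey). At 0 the red curve has reached 96.4% of its genes, and it lies to the left of the blue and grey curves over most of the range.

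The size of the 6 h logFC went with the size of the later one. Across the 138 members the 6 h logFC and the mean of 24 and 48 h, which come from separate libraries, had a Spearman rank correlation of 0.43, and without RPS18P12 it was 0.42. Across the 10999 other genes it was 0.40, close to that of the members. Genes are not independent replicates, and no p-value is attached to these values.

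The 3′UTRs of the members were rich in miR-16 seed matches, a property the rule did not use. Of the 138 members, 137 were matched to 1 gene of GENCODE 29, 134 were protein-coding, and these 134 had an annotated 3′UTR. A 7mer or 8mer match was present in 114 of the 134 (85.1%), against 2924 of 10049 other genes with a 3′UTR (29.1%). Among the 144 genes with a 3′UTR that passed the limits at 24 and 48 h only, 92 (63.9%) had one. The best match was an 8mer in 39 members (29.1%, against 4.84% of the others), a 7mer-m8 in 63 (47.0% against 20.6%) and a 7mer-A1 in 12 (8.96% against 3.67%). A further 6 members held only a 6mer, and 14 held none of these letters (10.4% against 53.2%).

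The share was the higher one in the members in each of 5 bins of 3′UTR length. The median 3′UTR was 1681 bases in the members and 1450 bases in the other genes, and the share of the others weighted to the members' bins of length was 32.5%. In the bin of the shortest 3′UTRs (up to 506 bases), 12 of 18 members had a match, 66.7% against 7.28% of the others. In the bin of the longest (3296 bases and more), 32 of 35 members had one, 91.4% against 58.1%. ARL2, with one of the short 3′UTRs, had 5 matches in 329 bases. This count includes matches that overlap each other, as in the window of ARL2 printed above.

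**Figure D3:**
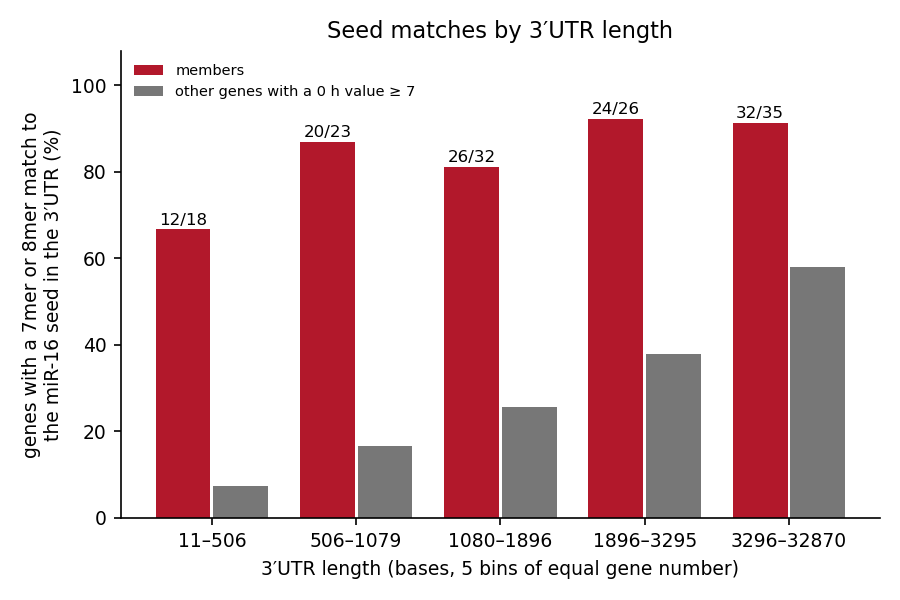
Share of genes with a 7mer or 8mer match to the miR-16 seed in the 3′UTR (vertical axis, %) in 5 bins of 3′UTR length (horizontal axis, bases), for the members (red, with counts) and the other genes with a 0 h value of at least 7 (grey). The red bars stand at 66.7 to 92.3% and the grey bars at 7.28 to 58.1%, and the red bar is the taller one in every bin.

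Members often had several matches, where matches that overlap each other were counted separately. There were 2 or more in 62 of 134 members (46.3%, against 9.46% of the others) and 3 or more in 28 (20.9% against 3.13%). Read the other way, the members made up 0.28% of the genes with no 7mer or 8mer match, 2.57% of those with 1 match, 5.07% of those with 2 and 8.16% of those with 3 or more. By kind, 7.43% of genes with an 8mer, 2.95% of those with a 7mer-m8 and 3.15% of those with a 7mer-A1 were members. Most genes with a match were thus not members, and the non-members with an 8mer had a median logFC of -0.04 at 6 h and -0.15 at 24 h.

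Of all 16384 possible 7-base words, ranked by the share of member 3′UTRs holding them minus the share of other 3′UTRs, the first was TGCTGCT, present in 76.1% of the members and 25.4% of the others. The next was GCTGCTA, at 47.8% and 10.5%, and TTGCTGC followed at 45.5% and 17.5%. These words overlap, and an 8mer holds both TGCTGCT and GCTGCTA. Of the pair of biotinylated oligonucleotides listed by the study, the one that is not miR-16 was taken as the control sequence, against its row label. Matches to its seed (7mer-m8 TAGTACA, 8mer TAGTACAA, 7mer-A1 AGTACAA) were present in 8.21% of the members and 15.2% of the others. Whether the transfected miR-CTR had that sequence is not given in the sources used here.

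Among the members' 223 matches, 21.5% were 8mers, against 11.5% of 4434 matches in other genes. They had a median A and T content of 55.0% in the 30 bases on each side, against 51.7%. Whole 3′UTRs had a median G and C content of 44.8% in the members and 42.2% in the others. The members' 3′UTRs as a whole were thus not richer in A and T. The median distance of the members' matches to the nearer end of the 3′UTR was 418 bases, against 640, not adjusted for 3′UTR length. From the shortest to the longest bin of length, the share of other genes with a match went from 7.28 to 58.1%. In the members it went from 66.7 to 91.4%. Nearness to an end and 3′UTR length can thus not be told apart here. Of the members' matches, 31.4% lay in the first 25% of the 3′UTR and 26.9% in its last 25%, against 28.0% and 21.0% in the others.

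The 20 members with a 3′UTR but no 7mer or 8mer in it included ANKRD52, AP1S3, C6orf136, CHSY3, INTS5, LIPH, MICA, PDE5A, RARS, RASA2, RRAGD, SETD3, SLC17A5, SLC37A1, TMCC2, TMUB1, TPCN2, ZBTB45 and ZDHHC12. Their 6 h logFC was below 0 in 18 of 20, with a median of -0.22, against -0.29 in the 114 with a match. In their coding sequences, 17 of 20 (85.0%) held a 7mer or 8mer, against 36.7% of the 7125 other genes without a 3′UTR match. Their median coding length was 1449 bases, against 1287 bases. Members with a 3′UTR match had a coding match in 61 of 114 cases (53.5%, against 39.1% of other genes with a 3′UTR match).

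The coding matches of the 2 such members with the lowest late logFC are shown because their 3′UTRs hold a 6mer only. ANKRD52, which encodes a regulatory subunit of protein phosphatase 6, had 11 coding matches, and RRAGD had 1, near the end of its reading frame.
ANKRD52 (coding, chr12:56247551-56247580, reverse strand, 8mer): ccatgtggactgtgtacatcTGCTGCTAga
RRAGD (coding, chr6:89368058-89368086, reverse strand, 7mer-m8): ccctaatgggacccctagagTGCTGCTgt
ANKRD52 stood at 12.05 at 0 h, at 12.05, 12.14, 12.18 and 12.06 with miR-CTR and at 11.83, 11.28, 10.95 and 10.77 with miR-16, in the order 6, 12, 24 and 48 h that is used for all series of 4 values here. Every miR-16 value was below every miR-CTR value, and those of miR-CTR spanned 12.05 to 12.18 only.

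Cell cycle genes gave 8 members, grouped by function after their values were seen, as were the groups that follow. These groups were made by hand among the members only, so their counts have no share over all genes beside them. The cell cycle members are described first. They included CDC25A, ANLN, WEE1, CCND3, MYBL1, CDCA4 and CCND1. All 8 were below 0 at 6 h, from -0.55 to -0.12, and 7 of 8 had a 3′UTR match. Their late logFC, the mean of 24 and 48 h, ran from -1.21 to -0.63. Its median was -1.04, against -0.77 over all members. The rule used these values, so this is a description only.

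CDC25A, the phosphatase that activates cyclin-dependent kinases at entry into S phase, was at 10.69 at 0 h, at 11.00, 10.64, 10.40 and 10.36 with miR-CTR and at 10.53, 9.81, 9.36 and 8.98 with miR-16. The 6 h miR-16 value lay within the miR-CTR range and the later ones lay below it. This made a logFC of -0.47, -0.83, -1.04 and -1.38, with a counting standard error of 0.0509 at 6 h and 0.0756 at 48 h. Its paralogues CDC25B and CDC25C, each with 1 match, had a logFC of -0.01 and -0.10 at 6 h and reached -0.69 and -0.66 at 48 h.

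CCND1, the D-type cyclin that drives cells from G1 into S phase, was among the most abundant members. It stood at 13.53 at 0 h, at 13.33, 13.69, 13.87 and 14.31 with miR-CTR and at 12.92, 13.26, 13.27 and 13.65 with miR-16. Both series were highest at 48 h, the miR-16 value then being above the 0 h value, and the gap between the mimics widened at each time, with a logFC of -0.41, -0.43, -0.60 and -0.66. CCND3, a second D-type cyclin, was at 9.88 at 0 h, at 9.80, 9.89, 9.76 and 9.45 with miR-CTR and at 9.68, 9.28, 8.91 and 8.26 with miR-16. Its logFC was -0.12, -0.61, -0.85 and -1.19, and its miR-CTR values were at or near the 0 h value until the last, lower one.

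WEE1, the kinase that holds CDK1 inactive before mitosis, was at 9.77 at 0 h, between 9.89 and 10.04 at the 4 later times with miR-CTR and at 9.68, 9.35, 9.19 and 8.73 with miR-16. All of its miR-16 values lay below all of its miR-CTR values. Its relative PKMYT1, without a match in the 3′UTR, had a logFC of -0.07 at 6 h and -1.10 at 48 h. An inhibitor of CDK1 and the activator CDC25A were thus both among the members.

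ANLN encodes anillin, a scaffold of the contractile ring in cytokinesis. It was at 12.41 at 0 h, at 12.65, 12.40, 12.18 and 12.08 with miR-CTR and at 12.36, 11.83, 11.27 and 10.58 with miR-16. The logFC deepened at each time, to -1.50, while the miR-CTR values were lower at each time after 6 h as well. MYBL1, a transcription factor of the MYB family, had -0.34, -0.49, -0.88 and -1.09, and CDCA4 had -0.55, -0.68, -0.80 and -1.16.

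Most genes on the wider cell cycle lists were not members, and shares are set here beside the 1.24% of all genes. Of 38 G1/S and checkpoint regulators with a 0 h value of at least 7, 4 (10.5%) were members: CCND1, CCND3, CDC25A and WEE1. At 6 h, 28 of the 38 were below 0, against the 47.1% of all genes given above. Of 39 genes of mitosis and cytokinesis, only ANLN (2.56%) was a member. The median of that list was -0.04 at 6 h and -0.79 at 48 h, with 8 of 39 holding a 3′UTR match, and 3 of the 39 passed the limits at both 24 and 48 h, as did 290 of all 11137 genes (2.60%).

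Of 28 commonly listed miR-15/16 targets, 5 (17.9%, against 1.24% of all genes) were members: ARL2, CCND1, CCND3, CDC25A and WEE1. A 3′UTR match was present in 26 of the 28. The list's median was -0.15 at 6 h and -0.47 at 48 h, and 6 of its genes passed the limits at both 24 and 48 h (2.60% of all genes). BCL2, the classic survival target of the family, holds an 8mer and had a logFC of 0.03, 0.16, 0.03 and -0.12. CCNE1 missed membership on 1 value, with -0.56, -0.53, -0.46 and -0.63.

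A set of 11 members acts at junctions, in the Hippo pathway or on the cytoskeleton. Each of the 11 had a 3′UTR match and a 6 h logFC below 0. Over all members these shares were 85.1% and 96.4%, so they do not set the group apart. ARL2, a small GTPase that works with tubulin folding cofactors, was at 9.40 at 0 h, at 9.16, 9.28, 9.50 and 9.95 with miR-CTR and at 8.89, 8.34, 8.20 and 8.17 with miR-16. No miR-16 value reached the lowest miR-CTR value. Its late level was 34.4% of that with miR-CTR.

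AMOT encodes angiomotin, a junctional scaffold that binds the transcriptional co-activator YAP. It was at 11.04 at 0 h, at 11.11, 11.10, 11.26 and 11.00 with miR-CTR and at 10.72, 10.32, 10.01 and 9.73 with miR-16, a logFC of -0.39, -0.78, -1.25 and -1.27. The miR-CTR values were flat and the miR-16 values went down at each time. AMOTL1, with a single 7mer-m8 like AMOT, had 0.06, -0.13, -0.23 and -0.22, and AMOTL2, with a 6mer, had -0.02, -0.17, -0.02 and 0.41. LATS1, a kinase that phosphorylates YAP, had -0.24, -0.50, -0.65 and -0.51 with 3 matches, whereas LATS2 with 1 match had 0.05, -0.11, -0.22 and -0.27. AMOT and LATS1 were the only members among 26 Hippo genes (7.69%, against 1.24% of all genes). The median of the 26 was 0.035 at 6 h and 0.07 at 48 h.

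DYNC1I1, an intermediate chain of cytoplasmic dynein, was at 7.64 at 0 h, at 8.14, 7.94, 8.53 and 8.67 with miR-CTR and at 7.64, 7.45, 7.26 and 7.18 with miR-16. It was above the 0 h value with miR-CTR and at or below it with miR-16, and it is one of the less abundant members, with a counting standard error of 0.138 at 6 h. TACC1, a coiled-coil protein of centrosome and microtubules, had a logFC of -0.37, -0.75, -1.21 and -1.18. The others of the group were BVES, the kinesins KIF21A and KIF5B, the tight junction protein CLDN12, the katanin-like KATNAL1 and ARHGDIA, which holds small GTPases inactive. ARHGDIA was one of the most abundant members, at 13.41 at 0 h, and had a logFC of only -0.05 at 6 h before -0.42, -0.59 and -0.81.

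Lysosomal, endosomal and autophagy genes gave 13 members, grouped by hand with no list of such genes to set the count against: SMPD1, RRAGD, TPCN2, TMEM55A, ACP2, VPS4A, GABARAPL1, PLA2G15, SLC17A5, SESN3, CLCN5, ATG14 and IGF2R. Of these, 10 had a 3′UTR match and 12 were below 0 at 6 h. SMPD1, the acid sphingomyelinase of the lysosome, was at 9.73 at 0 h, at 9.93, 9.93, 10.03 and 10.37 with miR-CTR and at 9.66, 9.03, 8.62 and 8.53 with miR-16. Its logFC of -0.27, -0.90, -1.41 and -1.84 left 32.4% of the miR-CTR level late.

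RRAGD is one of the Rag GTPases that bring the growth kinase complex mTORC1 to the lysosome. It was at 10.57 at 0 h, at 10.48, 10.68, 10.97 and 11.44 with miR-CTR and at 9.97, 9.96, 9.74 and 9.93 with miR-16. The miR-16 values were all below the miR-CTR values, and the gap widened to -1.51 as the miR-CTR values went up. RRAGA, RRAGB and RRAGC had -0.14, -0.53 and -0.35 at 24 h and -0.21, -0.15 and -0.24 at 48 h. RRAGA and RRAGC hold a 7mer-m8, RRAGD a 6mer and RRAGB none of these. SESN3, a sestrin that restrains mTORC1, had a logFC of -0.53, -0.57, -0.90 and -0.60, against -0.05, 0.02, -0.04 and -0.05 for SESN1 and -0.08, -0.32, -0.27 and -0.24 for SESN2. RRAGD and SESN3 were the members among 31 genes of mTORC1, the Rag GTPases and folliculin (6.45%, against 1.24% of all genes).

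Transporters outside the lysosome gave 9 members. SLC2A3, which encodes the glucose transporter GLUT3, was at 7.68 at 0 h, at 8.34, 8.83, 8.79 and 8.21 with miR-CTR and at 7.71, 7.79, 7.43 and 7.34 with miR-16. Its miR-16 values lay on both sides of the 0 h value, its miR-CTR values above it, and its logFC was -0.63, -1.04, -1.36 and -0.87. SLC7A5, which carries large neutral amino acids, was the most abundant member and stood at 13.68 at 0 h, at 13.97, 13.96, 14.06 and 14.23 with miR-CTR and at 13.88, 13.53, 13.40 and 13.20 with miR-16. Its logFC of -0.09 at 6 h deepened to -1.03. The rest included SLC9A8 (-0.53, -0.90, -0.70 and -0.82), SLC11A2, SLC25A22, SLC20A2, SLC37A1 and SLC35A4. On the list of glucose, lactate and amino acid transporters, 2 of 26 genes were members (7.69%, against 1.24% of all genes).

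The ubiquitin system gave 9 members: RNF43, KLHL15, BTRC, USP25, KBTBD4, FBXO10, UBE4B, AREL1 and WWP1. Each had a 3′UTR match and a 6 h logFC below 0, as did 85.1% and 96.4% of all members. RNF43 is a ligase that removes WNT receptors from the cell surface, and BTRC recognises phosphorylated β-catenin. RNF43 was at 7.89 at 0 h, at 8.46, 8.90, 9.12 and 9.28 with miR-CTR and at 8.06, 8.06, 8.10 and 8.25 with miR-16. It was higher at each later time with miR-CTR and between 8.06 and 8.25 with miR-16. BTRC was also higher at each later time with miR-CTR, over a narrower range, from 9.72 at 0 h to 9.97 at 48 h. It was at 9.31, 9.18, 9.01 and 9.21 with miR-16. Both are negative regulators of WNT signalling and were the members among 33 WNT genes (6.06%, against 1.24% of all genes). KLHL15, an adaptor of a cullin ligase, had -0.55, -0.47, -0.83 and -0.91. Of the 56 genes on the list of ubiquitin ligases and conjugating enzymes, 2 were members, KLHL15 and WWP1 (3.57%, against 1.24% of all genes).

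Part of the RNA silencing machinery was among the members. AGO1, an Argonaute protein, was at 10.88 at 0 h, at 10.83, 11.03, 11.18 and 11.01 with miR-CTR and at 10.75, 10.58, 10.55 and 10.41 with miR-16. At 6 h its logFC of -0.08 lay within 2 counting standard errors (0.0498 each) of 0, and at 48 h it was -0.60. AGO2, AGO3 and AGO4 hold 3 matches each, as AGO1 does, and had 48 h values of -0.29, -0.16 and -0.22. TARBP2, the double-stranded RNA-binding partner of Dicer, had -0.16, -0.56, -0.58 and -0.73, with a single match in a 3′UTR of 283 bases. MOV10, a helicase that associates with Argonaute, and CPEB2, which binds cytoplasmic polyadenylation elements, were members too. AGO1 and TARBP2 were the members among 37 genes of microRNA processing, silencing and deadenylation (5.41%, against 1.24% of all genes). The median of the 37 was 0.01 at 6 h and -0.03 at 48 h. CPEB2, with -0.35, -0.40, -0.69 and -0.53, was the 1 member among 45 RNA-binding and splicing factors (2.22%). TAF15, RARS, ABCF1, ABCF3 and YRDC complete the 9 members that bind RNA or serve translation.

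Another 10 members act on chromatin or transcription, among them the Polycomb protein CBX6, ATF6, SOX6, HOXD1, FOXK1, ATXN7L3, HIPK2, JARID2 and CHD7. All 10 had a 3′UTR match, against 85.1% of all members with a 3′UTR. Their late logFC, which the rule used, ran from -0.97 to -0.52. CBX6, with 3 matches, had -0.46, -0.59, -0.90 and -1.04, while CBX2, with an 8mer, had 0.03, -0.16, 0.00 and 0.14 and CBX8, with a 7mer-A1, had -0.08, 0.10, 0.16 and 0.17.

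Another 9 members work in RAS, kinase or growth factor signalling: NRBP1, RASA2, MAPK8IP2, RCE1, SPRED1, UHMK1, SGK3, GAREM and BCR. SPRED1 and the GTPase-activating protein RASA2 restrain RAS, whereas RCE1 cleaves RAS during its maturation, so regulators of opposite sign stood side by side. SPRED1 was at 10.26 at 0 h, at 10.29, 10.32, 10.31 and 10.41 with miR-CTR and at 9.92, 9.79, 9.53 and 9.57 with miR-16. The miR-CTR values spanned 10.26 to 10.41, and all miR-16 values were lower. SPRED2, without a match, had 0.10, -0.06, -0.07 and -0.09. Of 40 growth factor receptor, RAF-MEK-ERK and PI3K-AKT genes and of 25 activin, BMP and TGF-β genes, 0 were members. Against the 1.24% of all genes, lists of this size are too short for a 0 to be read as a difference.

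Lipid and glycan synthesis gave 7 members, GFPT1, PIGB, GALNT7, CHSY3, CDS2, FASN and PISD, of which GFPT1 makes the precursor of amino sugars and FASN makes fatty acids. FASN stood at 13.25 at 0 h, at 13.94, 13.61, 13.80 and 13.84 with miR-CTR and at 13.90, 13.14, 13.21 and 13.27 with miR-16. Both 6 h values were above the 0 h value. The logFC was -0.04 at 6 h, with a counting standard error of 0.0168, and -0.47 at 12 h. Vesicle coats and trafficking gave 6 members, TVP23B, AP1S3, NECAP1, AVL9, TBC1D13 and AP2A1, with late values from -0.88 to -0.59. TVP23B, a Golgi membrane protein, had -0.53, -0.72, -0.92 and -0.84, and its near copy TVP23C, which at 6.70 was below the 0 h limit, had 0.02, -0.24, -0.17 and -0.58. Of 58 RAB, ARF and ARL GTPases and regulators, ARL2 and TBC1D13 were members (3.45%, against 1.24% of all genes).

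The next 3 members are ligands of immune receptors at the cell surface. TNFSF9, the ligand of the T-cell co-stimulatory receptor CD137, was at 8.56 at 0 h, at 8.68, 8.53, 8.64 and 8.45 with miR-CTR and at 8.06, 8.03, 7.59 and 7.22 with miR-16. Its miR-CTR values were flat and its logFC reached -1.23. MICA and MICB, stress-induced ligands of the receptor NKG2D, had 48 h values of -0.75 and -0.81, and since the 2 genes are close in sequence their reads can be confused. Members numbered 0 of 11 interferon response genes and 0 of 74 ribosomal protein genes, counts that are likewise near the 1.24% of all genes.

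A further 40 members belong to none of these groups. SPRYD3, a SPRY domain protein, had the lowest late logFC of all members. It was at 9.30 at 0 h, at 9.09, 9.34, 9.63 and 9.87 with miR-CTR and at 8.67, 8.39, 8.13 and 7.99 with miR-16, and it holds 4 matches. Its logFC of -0.42, -0.95, -1.50 and -1.88, with a counting standard error of 0.103 at 48 h, left 31% of the miR-CTR level late.

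DNAJB4, a co-chaperone of HSP70, had the lowest 6 h logFC of the protein-coding members. It was at 10.45 at 0 h, at 10.03, 10.07, 10.03 and 9.85 with miR-CTR and at 9.33, 9.32, 8.89 and 8.81 with miR-16. It was lower after transfection with either mimic, and lower still with miR-16. KLHDC8B had -0.25, -0.80, -1.16 and -1.18, and CHIC1 had -0.62, -0.89, -1.17 and -0.86. The rest were CARD10, RTN4, ZDHHC12, TMUB1, PGM2L1, TPRG1L, SMIM13, MFAP3L, IPPK, GPR157, AHCYL2, SETD3, KIAA0895, ZNF622, BCL2L2, ZBTB45, C6orf136, TMCC2, TMEM109, CYB561A3, NLRX1, NT5DC3, FAM189B, LYPLA2, PAFAH2, HSPG2, ATXN7L3B, REXO1, CC2D1B, C2orf72, PRRC2C, SPAG7, INTS5, LIPH and PDE5A, with ANKRD52. BCL2L2 encodes the anti-apoptotic protein BCL-W and had a late logFC of -0.75.

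The last 4 members are pseudogenes or carry a clone name, and their reads may come from other copies. RPS18P12 was at 8.61 at 0 h, at 9.61, 9.43, 8.38 and 10.39 with miR-CTR and at 7.20, 8.65, 7.55 and 7.94 with miR-16. Its miR-CTR values alone spanned 8.38 to 10.39, and its parent RPS18 had a logFC between -0.02 and 0.13. FTH1P12 had -0.61, -0.41, -0.76 and -0.73, and its parent FTH1, with -0.24, -0.12, -0.34 and -0.54, was lower with miR-16 too. UBE2V1P2 had -0.39, -0.47, -1.18 and -0.70, against 0.26, -0.02, 0.03 and -0.84 for UBE2V1. RP11-737O24.3 was not matched to the annotation and had -0.07, -0.49, -0.85 and -0.54.

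**Figure D4:**
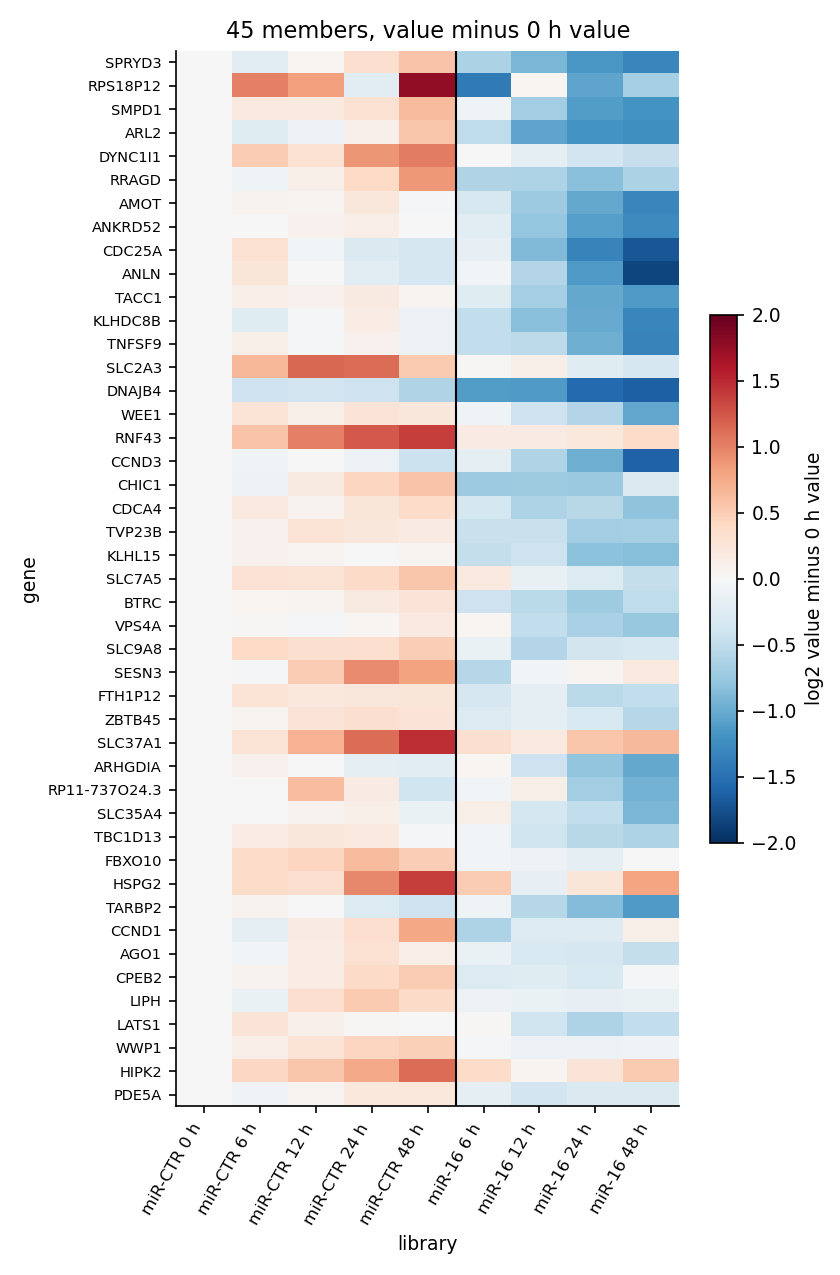
Value of 45 members in each of the 9 libraries minus the value at 0 h (colour, log2, blue lower and red higher, limits -2 and 2), ordered by the mean logFC of 24 and 48 h. Most rows are pale in the miR-CTR columns and blue in the miR-16 columns, while RNF43 and HIPK2 are red with miR-CTR and paler red with miR-16.

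Measured from 0 h, the members did not all fall. With miR-16 the median change of the members since 0 h was -0.19 (log2) after 6 h, and it reached -0.65 by 48 h. With miR-CTR the median change was 0.08 at 6 h and 0.20 at 48 h, so that part of the median logFC lay in higher control values. Over all 11137 genes the 48 h medians were -0.04 with miR-16 and -0.03 with miR-CTR. The choice used the values at 24 and 48 h, and low differences go with low miR-16 and high miR-CTR values, so the counts that follow are a description. The mean of 24 and 48 h was below the 0 h value with miR-16 in 125 members (54.2% of all genes), and below it by more than 0.5 in 86 (11.6%). With miR-CTR it was above the 0 h value in 100 members (47.2% of all genes), and above it by more than 0.5 in 30 (7.37%). The miR-16 values at 12, 24 and 48 h were below all 5 miR-CTR values in 111 members (7.18% of all genes), and all 4 miR-16 values were so in 77 (2.96%).

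The 13 members whose late miR-16 value was not below the 0 h value were RNF43, TPCN2, PGM2L1, GPR157, SLC17A5, SESN3, TMCC2, SLC37A1, GAREM, HSPG2, IGF2R, HIPK2 and JARID2. HSPG2, which encodes the basement membrane proteoglycan perlecan, was at 9.27 at 0 h, at 9.63, 9.60, 10.23 and 10.65 with miR-CTR and at 9.78, 9.11, 9.51 and 10.06 with miR-16. It was higher at 48 h than at 0 h with both mimics. HIPK2, a nuclear kinase with 7 matches in a 3′UTR of 11357 bases, was at 10.33 at 0 h, at 10.74, 10.89, 11.08 and 11.44 with miR-CTR and at 10.70, 10.38, 10.58 and 10.86 with miR-16. SLC37A1 went from 9.14 at 0 h to 10.62 with miR-CTR and to 9.79 with miR-16 at 48 h. A late miR-CTR value more than 0.5 above 0 h was seen in 8 of the 20 members without a 3′UTR match and in 21 of the 114 with one. At the other end, DNAJB4 was the 1 member whose late miR-CTR value was more than 0.5 below the 0 h value.

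**Figure D5:**
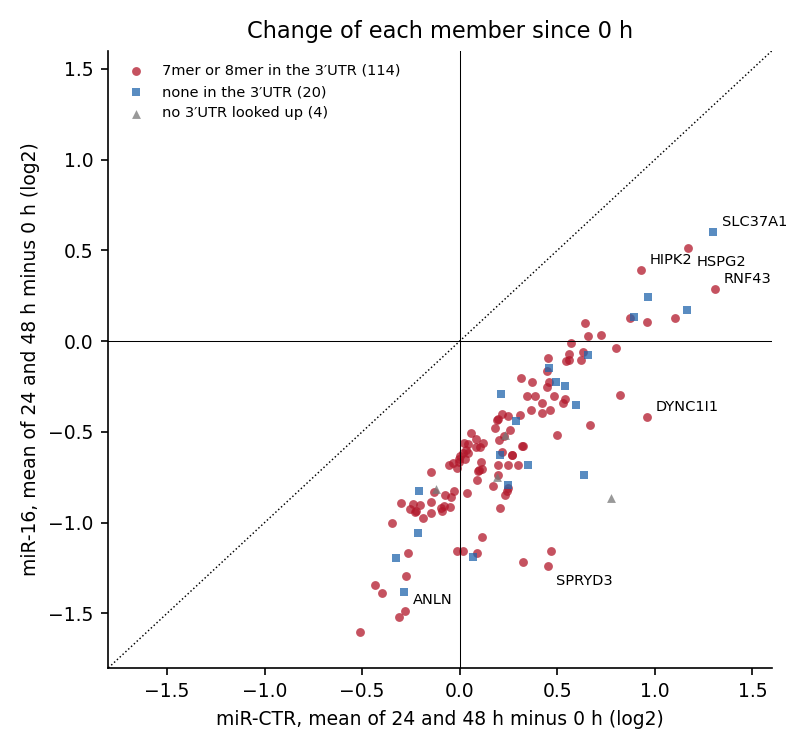
For each of the 138 members, the mean of 24 and 48 h minus the 0 h value with miR-CTR (horizontal axis, log2) and with miR-16 (vertical axis, log2), marked by the presence of a 7mer or 8mer match in the 3′UTR. All points lie below the dotted line of equal change, as the choice requires, and 13 lie at or above the horizontal line at 0, up to 0.60 for SLC37A1.

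In 5 members the 6 h logFC was above 0: HSPG2 (0.15), SLC35A4 (0.13), SLC37A1 (0.05), LIPH (0.03) and VPS4A (0.01). HSPG2, SLC35A4 and VPS4A hold a 3′UTR match, and SLC37A1 and LIPH do not. At 48 h the 5 stood at -0.59, -0.77, -0.83, -0.53 and -0.95. The counting standard error of HSPG2 at 6 h was 0.0723, so its value lay just over 2 such errors from 0.

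At the limits, PDE5A stood exactly on those of 24 and 48 h, with -0.44, -0.50 and -0.50 at 12, 24 and 48 h. HIPK2 (-0.50 at 24 h) and WWP1 (-0.40 at 12 h) also stood exactly on a limit. So did other members, among them FBXO10 (-0.50 at 48 h) and CPEB2 (-0.40 at 12 h). LSM11, NAE1 and LRCH4 missed by 0.01 at 12 h, each at -0.39, with 48 h values of -1.22, -0.91 and -0.99, and LSM11 had -0.53 at 6 h. In abundance, SLC7A5, CCND1 and ARHGDIA were the highest at 0 h (13.68, 13.53 and 13.41) and ZBTB45, RP11-737O24.3 and FBXO10 the lowest (7.12, 7.17 and 7.35). The median 0 h value was 9.95 in the members and 9.89 in the other genes. The median member had 619 to 1335 reads in a library, and the lowest had 70 to 172.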

How the data were processed

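PolyA RNA-seq of MP41 cells gave 9 libraries. The authors deposited 1 table of 14839 genes with log2 values to 2 decimals, and no raw counts were used. The table numbers its time points, and the first after 0 h was taken as 6 h because the other numbers belong to 12, 24 and 48 h. The submitters' processing notes name FastQC, STAR 2.4.0a, featureCounts and Subread 1.5.0-p3, and hg38/GRCh38; the normalization, strand setting and annotation are not given in the sources used here. Of values up to 5, 100% were whole multiples of 1 step per library (0.853 to 1.149), to within the rounding of 0.005 on the log2 scale, so the deposited unit is log2(reads/size factor + 1), and reads were recovered from it for counting errors, which do not cover spread between cultures. No count model was fitted, as there was 1 library per condition.

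The members, gene lists and role groups were chosen with earlier results of these data known. Symbols were matched to GENCODE 29 on GRCh38 by name, 528 of 13530 through an older symbol of RefSeq. Matches were exact, in the longest annotated 3′UTR, or in the coding sequence where stated. Overlapping matches were counted separately in all counts of matches, so these can exceed the number of distinct sites. Shares at member lengths used 5 bins. Genes named are the 12 members lowest at 24 and 48 h, the 10 lowest at 6 h, members on the fixed lists, those at the limits and at the ends of abundance, and those above 0 at 6 h. MYBL1, FASN, SPRED1, MICA, MICB, CBX6, BCL2, BCL2L2, CCNE1 and the paralogues were added after their values were seen. Some members are not reported here. Python 3.11.15, pandas 2.3.3, numpy 2.4.6 and scipy 1.17.1 were used, and the functions were tested on simulated data. Alternatives were other limits, quantile normalization, centring, a pseudocount of 10, the 0 h library as reference and other definitions of a match.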

Additional observations from a re-analysis of the deposited data

How the results depend on the processing

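The number of members was 152 with a 0 h limit of 6, 125 with a limit of 8, 125 under quantile normalization (122 of the 138 kept), 138 after centring on the median gene and 124 with a pseudocount of 10. It was 270 with limits 0.8 times as large, 66 with limits 1.2 times as large, 33 with -0.4 at 6 h added, and 248 where all times were set against 0 h, with 60 of the 138 among them. Set against 0 h, the share of the members below 0 at 6 h was 76.1% and their median -0.185, against 96.4% and -0.28. Over all genes, 47.3% were below 0 with that reference, and the median was 0.01. The late values of RNF43 (0.28), SESN3 (0.12), HIPK2 (0.39), HSPG2 (0.52) and SLC37A1 (0.60) turned positive with it. Of 45 named members none turned sign under quantile normalization, centring or the pseudocount. The share with a 3′UTR match was 29.1% for 8mers alone (4.84% in the others), 76.1% for 8mers and 7mer-m8 (25.4%), 89.6% with 6mers (46.8%) and 55.2% in the shortest annotated 3′UTR (13.8%). Members with the late miR-16 value below 0 h numbered 124 under quantile normalization and 121 at 48 h alone. Each logFC pairs the miR-16 and miR-CTR libraries of 1 hour. The labels carry no replicate number for a further block, and the hours were not treated as replicates. With 1 library per condition, the spread between cultures is unknown, and a difference between 2 libraries cannot be told apart from a difference between 2 dishes.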
